A study of Homo sapiens with 4 samples.

Results

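The genes described here encode the proteins that join epithelial cells to each other: the cadherins and catenins of adherens junctions, the claudins and scaffolds of tight junctions, the parts of desmosomes, and 4 genes tied to the epithelial state (EPCAM, ESRP1, ESRP2 and GRHL2). They were found by gene symbol and were 49 of the 58274 genes in the deposited table. The study followed human pluripotent stem cells through mesoderm and endothelium to blood, and asked how epithelial and mesenchymal genes move along that route. RNA was sequenced from 4 populations: the undifferentiated line BC1, which consists of human induced pluripotent stem cells, and 3 populations collected during its differentiation, called APLNR+ (mesoderm, day 2), CD31+CD34+ (the progenitors of hemogenic endothelium, or HEPs, day 5) and CD43+ (the hematopoietic progenitors, or HPCs, day 8). The cultures were given activinA and BMP4 for 2 days and then VEGF and bFGF for 6 days. All 4 libraries came from this 1 line, and each population was represented by 1 library, so no difference below has a replicate check and no p-value is given.

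Cells of an epithelial sheet are held together by 3 kinds of junction. In adherens junctions, classical cadherins bind the same cadherin on the next cell and are anchored to actin through catenins. Tight junctions seal the space between cells with claudins, which set the permeability, and with occludin and its relatives, all tied to scaffold proteins such as ZO-1. Desmosomes link cells through desmogleins and desmocollins, whose plaque of plakophilins, plakoglobin and desmoplakin holds keratin filaments. Undifferentiated human pluripotent stem cells grow as an epithelial sheet with E-cadherin at their borders, whereas mesoderm forms by an epithelial-to-mesenchymal transition and blood progenitors detach from the endothelium.

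The values were FPKM (fragments per kilobase of transcript, relative to all mapped fragments), which are per length, so that levels can be compared between genes within a library. The low values in the table corresponded to between 19620000 and 23600000 mapped fragments per library, and a gene was counted as risen or fallen when it changed by at least 1 on the log2(FPKM + 1) scale. Folds are ratios of FPKM, and the interval behind each is an exact 95% counting interval, which covers counting error only and leaves out how cultures vary. Marker sums followed the labels. The lists hold the genes of the antigens that name the populations (APLNR, PECAM1, CD34 and SPN), so this was partly fixed beforehand. The summed level of 5 pluripotency genes was 2844, 779, 146 and 116 FPKM in BC1, APLNR+, CD31+CD34+ and CD43+. That of 5 mesoderm genes was highest in APLNR+ (1866 FPKM, of which APLNR made up 1073). That of 5 endothelial genes was highest in CD31+CD34+ (729 FPKM) and that of 5 hematopoietic genes in CD43+ (791 FPKM). Within the endothelial list, PECAM1 was higher in CD43+ (126 FPKM) than in CD31+CD34+ (93.1 FPKM). The pluripotency sum in CD31+CD34+ and CD43+ was mostly LIN28A, at 117 and 92.9 FPKM, while SOX2 was listed at 0 in both. In bulk libraries such as these, fewer cells of a type and less RNA per cell cannot be told apart.

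Most junction genes fell along the route, at different steps, and some kept their level. Of the 49 genes, 44 reached 1 FPKM in at least 1 library, as did 17137 genes in all. From BC1 to CD43+, 31 of the 44 fell and 2 rose, where 18.9% of all genes fell and 15.2% rose. From BC1 to APLNR+, 18 fell and 6 rose, against 9.32% and 9.15% of all genes. From APLNR+ to CD31+CD34+, 15 fell and 6 rose, against 11.4% and 13.0% of all genes. From CD31+CD34+ to CD43+, 13 fell and 1 rose, against 13.5% and 7.63% of all genes. The share of junction genes that fell was thus above that of all genes at each step, and the median changes of the 44 genes were -0.49, -0.30 and -0.48 where those of all genes were 0.00, 0.01 and -0.08.

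**Figure D1:**
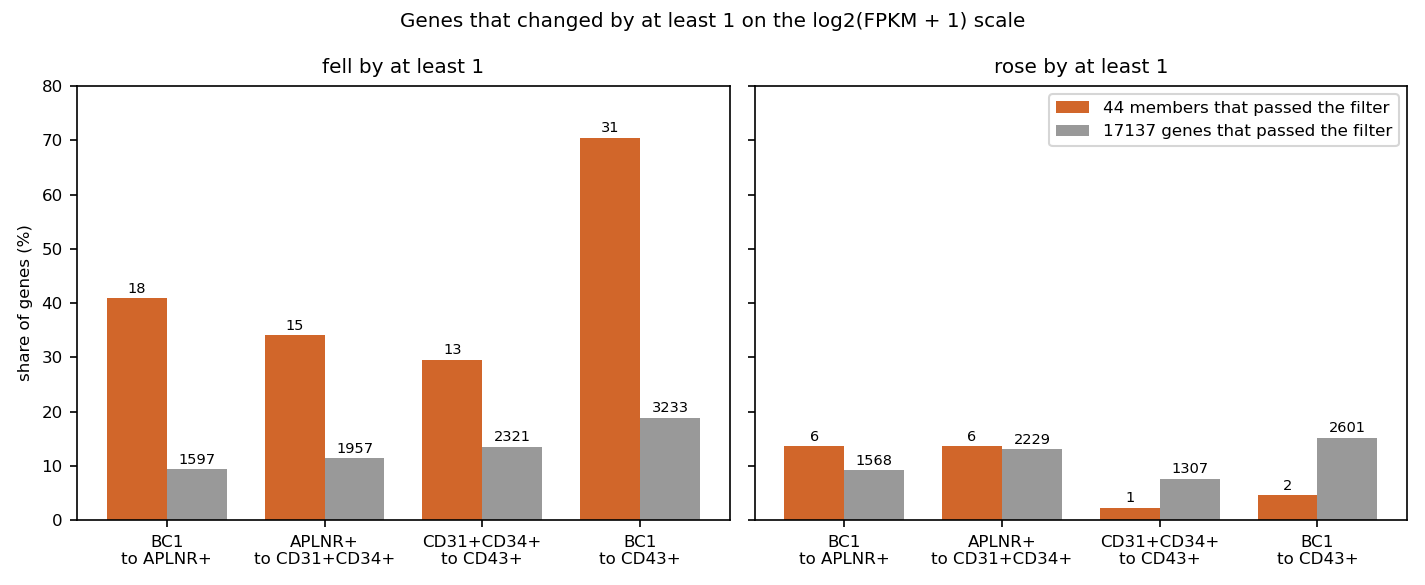
Share of genes, in percent, whose level on the log2(FPKM + 1) scale fell (left) or rose (right) by 1 or more, at each of the 3 steps and from BC1 to CD43+, for the 44 junction genes that passed the filter and for all 17137 genes that passed, with the number of genes above each bar. At every step the share that fell was larger among the junction genes, and at the last step 1 junction gene (CDH6) rose.

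Of the 44 genes, 26 peaked in BC1, 10 peaked in APLNR+, 7 peaked in CD31+CD34+ and 1 peaked in CD43+, the library where 30 of them had their lowest level. Among all genes that passed, 27.7% were highest in BC1, compared with 59.1% here, and 5384 of 17137 were lowest in CD43+. The number at or above 1 FPKM went down along the route, with 43, 35, 26 and 23 in BC1, APLNR+, CD31+CD34+ and CD43+. Over all genes it was 14335, 13946, 14128 and 13554. The number at or above 10 FPKM went from 28 to 16, 15 and 9, compared with 6988, 7133, 7404 and 6952 over all genes. The 4 epithelial surface genes and regulators all fell at the first step (median change -2.29), as did 10 of 19 tight junction genes (-1.86), whereas 2 of 13 adherens genes and 2 of 8 desmosome genes did so, with medians of 0.17 and -0.44. At the last step 6 of 13 adherens genes fell (-0.95), 5 of 19 tight junction genes (-0.24), 2 of 8 desmosome genes (-0.55) and none of the 4 surface genes and regulators (-0.36). Genes already under 1 FPKM can hardly fall further on this scale, and with a pseudocount of 0.1 FPKM the last-step medians of these classes were -1.39, -0.72, -1.81 and -0.99. Differences between the classes were not tested.

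**Figure D2:**
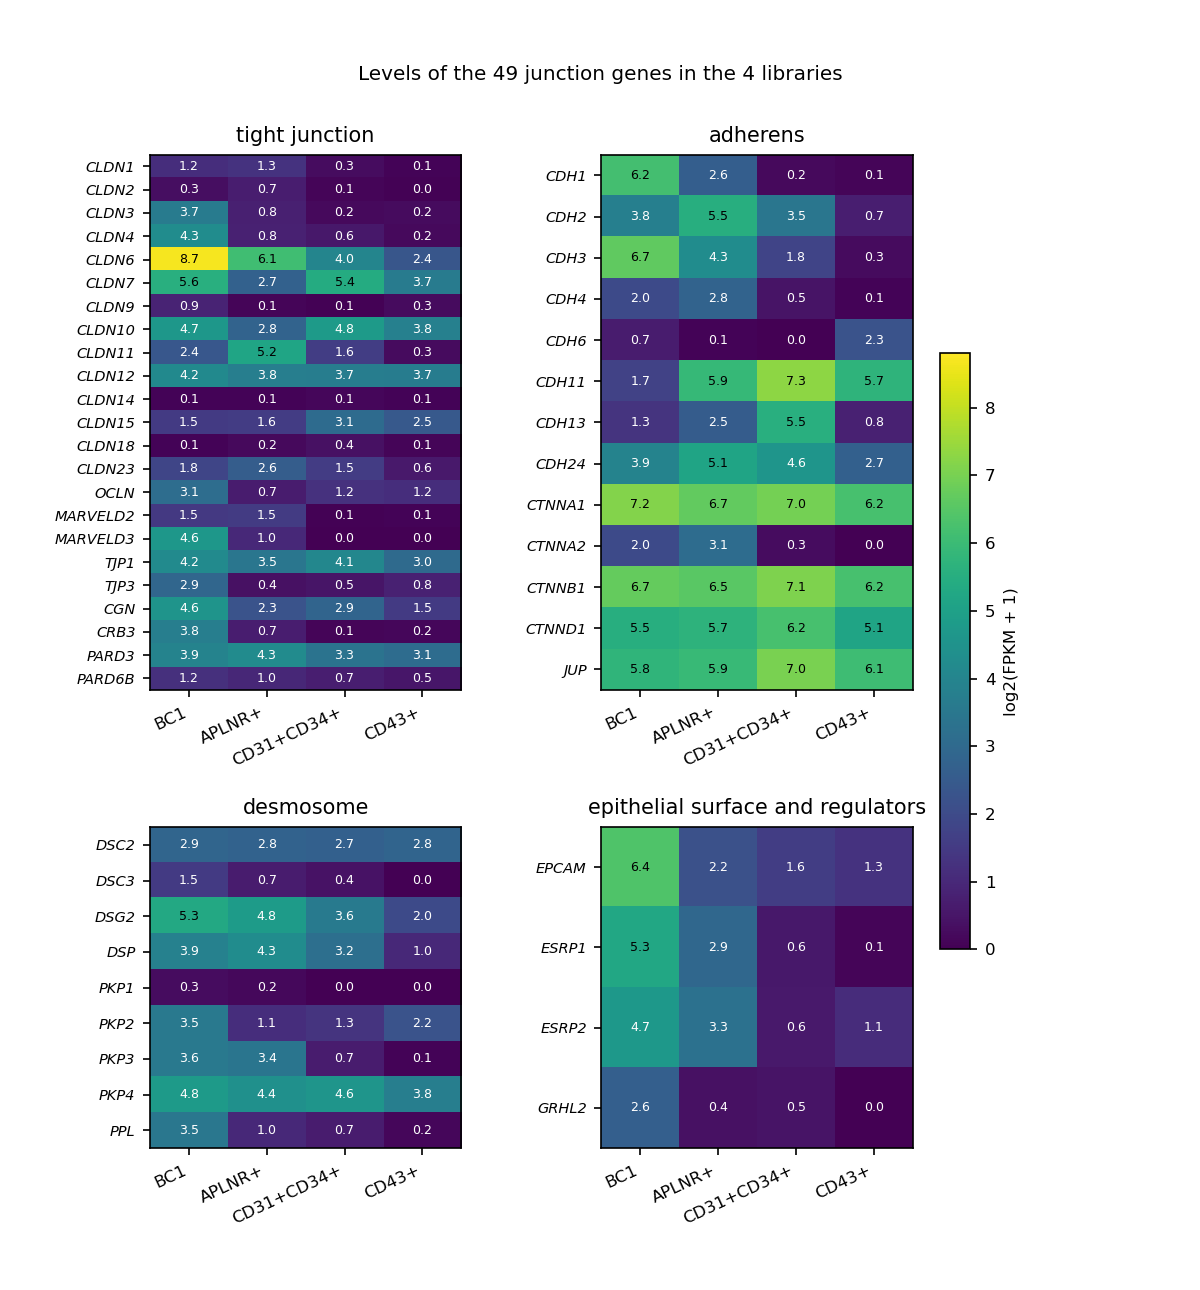
Heat map of the level of each of the 49 genes on the log2(FPKM + 1) scale, with 1 column per library, 1 panel per class and the value printed in each cell. The surface panel darkens after BC1, as do 10 of the 19 tight junction genes that passed the filter, of which CLDN7 and CLDN10 return in CD31+CD34+. CLDN11 brightens in APLNR+. The catenins CTNNA1, CTNNB1, CTNND1 and JUP keep high values in all 4 libraries.

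Single genes differed in the steps at which they changed. The most frequent, in 10 genes, was a fall at the first step with no further call: CLDN3, CLDN4, OCLN, MARVELD3, TJP3, CRB3, PKP2, PPL, EPCAM and GRHL2. That pattern depended on the pseudocount, since with 0.1 FPKM 8 of these 10 (EPCAM and TJP3 excepted) passed the threshold at a later step too. Another 8 genes made no call at any step (CTNNA1, CTNNB1, CLDN12, PARD3, PARD6B, DSC2, DSC3 and PKP4). Of these, DSC3 and PKP4 nevertheless fell from BC1 to CD43+. With a pseudocount of 0.1 FPKM, DSC3 also passed the threshold at the first and last steps. CDH3 and CLDN6 were the 2 genes that fell at all 3 steps. The 5 genes that never reached 1 FPKM were CLDN2, CLDN9, CLDN14, CLDN18 and PKP1, whose highest values were 0.614, 0.822, 0.102, 0.313 and 0.219 FPKM.

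Among the classical cadherins of the list, which leaves out CDH5, the gene with the highest FPKM was CDH3 in BC1 and CDH11 in the other 3 libraries. CDH1, which encodes E-cadherin (chr16:68737225-68835548, GRCh38, plus strand), was at 70.9, 5.14, 0.178 and 0.0899 FPKM across the libraries BC1, APLNR+, CD31+CD34+ and CD43+, and 4 values given for a gene are in that order throughout. CDH3, which encodes P-cadherin and lies 14.6 kb before CDH1, was higher than CDH1 in all 4 libraries, at 99.6, 18.6, 2.48 and 0.207 FPKM. Both were thus highest in BC1 and lower in each later library. At the first step CDH1 was 13.8-fold lower (12.4 to 15.5) and CDH3 5.37-fold lower (4.95 to 5.82), at the second 28.9-fold (16.3 to 53.5) and 7.48-fold lower (6.10 to 9.26). At the last step CDH3 was 12.0-fold lower (5.92 to 28.7), while the interval for CDH1 included 1. About 5.86 fragments lay behind the CD43+ value of CDH1, compared with 4244 in BC1.

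CDH2, which encodes N-cadherin, the cadherin of mesenchymal and neural cells, was at 12.8, 45.3, 10.003 and 0.682 FPKM. It was highest in APLNR+, 3.53-fold above BC1 (2.89 to 4.35), and then fell 4.53-fold (3.66 to 5.61) and 14.7-fold (6.67 to 36.2). CDH11, a type II cadherin of mesenchyme, was at 2.30, 59.1, 158 and 51.9 FPKM. It rose 25.7-fold at the first step (18.0 to 38.6) and 2.68-fold at the second (2.47 to 2.90), fell 3.05-fold at the last (2.80 to 3.31), and was still 22.6-fold above BC1 in CD43+ (15.8 to 34.0). CDH13, which encodes T-cadherin, a cadherin held in the membrane by a lipid anchor, was at 1.49, 4.85, 45.4 and 0.743 FPKM and fell 61.1-fold after CD31+CD34+ (40.8 to 93.7). CDH2 and CDH11 therefore differed after APLNR+, where CDH2 fell and CDH11 went on rising.

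CDH24, another type II cadherin, was at 14.4, 34.0, 23.0 and 5.45 FPKM. CDH4, which encodes R-cadherin, was at 2.90, 5.94, 0.388 and 0.0654 FPKM and fell 15.3-fold at the second step (10.3 to 23.1). CDH6, which encodes K-cadherin, was at 0.576 and 0.0593 FPKM in the first 2 libraries, listed at 0 in CD31+CD34+ and at 3.77 FPKM in CD43+. It was the only one of the 44 genes that was highest in CD43+, 6.55-fold above BC1 (5.02 to 8.83). Of the summed FPKM of CDH1, CDH2, CDH3, CDH4, CDH6, CDH11 and CDH24, CDH3 and CDH1 held 48.9% and 34.9% in BC1. CDH11 held 35.2% in APLNR+, followed by CDH2 with 26.9%, and 81.5% in CD31+CD34+ and 83.5% in CD43+. The sum of these genes was 204, 168, 194 and 62.2 FPKM. Up to CD31+CD34+ it thus changed less than the shares of CDH1, CDH3 and CDH11 did. It depends on the genes summed: with CDH13 it was 205, 173, 240 and 63.0 FPKM. CDH5, which is outside the list, was at 224 FPKM in CD31+CD34+. By FPKM times transcript length, CDH24 held the largest share in APLNR+, 40.8%, and CDH11 18.0%.

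**Figure D3:**
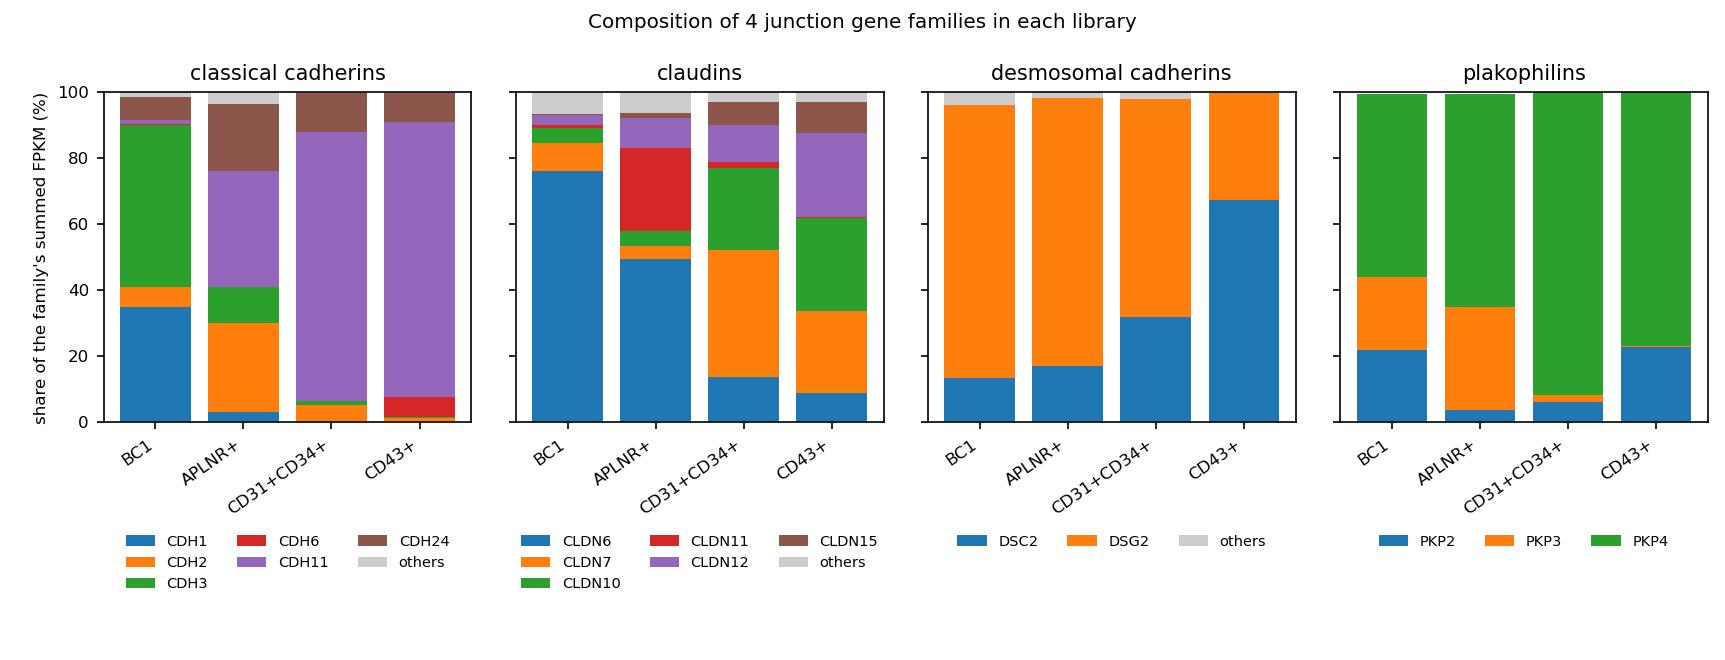
Share of each gene in the summed FPKM of the listed genes of its family, in percent, as stacked bars for the 4 libraries. Panels show classical cadherins (without CDH13 and CDH5), claudins, desmosomal cadherins and plakophilins. CDH1 and CDH3 fill most of the BC1 bar of the cadherins and CDH11 fills 81.5% and 83.5% of the last 2 bars, and the CLDN6 share of the claudins goes from 76.0% to 8.85%.

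The catenins other than CTNNA2 varied less than the cadherins, and CTNNA1 and CTNNB1 made no call at any step. CTNNA1, whose protein alpha-E-catenin ties the complex to actin, was at 144, 102, 123 and 74.9 FPKM. CTNNB1, which encodes beta-catenin, a cadherin partner and also the effector of Wnt signaling, was at 105, 91.6, 137 and 74.9 FPKM, 1.49-fold higher at the second step (1.45 to 1.55) and 1.83-fold lower at the last (1.76 to 1.89). CTNND1, which encodes p120-catenin, a stabilizer of cadherins at the membrane, was at 45.0, 50.8, 74.0 and 34.2 FPKM. JUP, which encodes plakoglobin, a catenin of both adherens junctions and desmosomes, was at 53.6, 59.7, 128 and 65.8 FPKM and rose 2.15-fold at the second step (1.99 to 2.32). These 4 genes were present at 34.2 FPKM or more in every library, including those in which CDH1 was at or below 0.178 FPKM. CTNNB1, CTNND1 and JUP peaked in CD31+CD34+, and the fall of CTNND1 at the last step, 2.16-fold (2.08 to 2.24), did not reach the threshold once the libraries were rescaled by size factors. The neural catenin gene CTNNA2 behaved differently, at 2.93, 7.74, 0.211 and 0.0185 FPKM.

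The ratio between the highest and the lowest library was taken for genes with no library at 0, which leaves out CDH6. Its median was 68.9 across the other 7 cadherins (CDH13 included), 2.16 across the 5 catenins and 14.7 across the 10 claudins that passed. Across 15648 of all 17137 genes that passed it was 2.61.

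CLDN6 led the claudins in BC1 and APLNR+ while falling at every step, and CLDN7 and CLDN10 fell at the first step and rose at the second. CLDN6, a claudin of early embryonic epithelium (chr16:3014712-3020071, GRCh38, minus strand), had the highest level of all 49 genes in any library, 409 FPKM in BC1, and was at 68.3, 15.0 and 4.16 FPKM in the later ones. It fell 5.99-fold (5.68 to 6.31), 4.55-fold (4.07 to 5.10) and 3.62-fold (2.90 to 4.59), 98.4-fold in all (80.9 to 122). CLDN9, a close copy that lies 206 bases from CLDN6, stayed at or below 0.822 FPKM, and reads shared between these 2 genes could have been split by the counting. CLDN3 and CLDN4, neighbours on chromosome 7 that are 29.3 kb apart, fell together at the first step. CLDN3 was at 11.7, 0.691, 0.170 and 0.187 FPKM, and CLDN4 at 18.5, 0.751, 0.464 and 0.180 FPKM, falls of 16.9-fold (10.02 to 30.6) and 24.6-fold (19.0 to 32.2) from BC1 to APLNR+.

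CLDN7 and CLDN10 dipped in APLNR+ and returned in CD31+CD34+. CLDN7, a claudin of many epithelia that binds EPCAM, was at 46.2, 5.71, 41.7 and 11.7 FPKM, 8.09-fold lower at the first step (6.16 to 10.8), 7.31-fold higher at the second (5.57 to 9.77) and 3.57-fold lower at the last (2.92 to 4.44). CLDN10, which encodes ion-selective channels, was at 24.4, 6.02, 26.9 and 13.2 FPKM, and its fall of 2.04-fold at the last step (1.72 to 2.44) was -0.98 on the log2(FPKM + 1) scale, just short of the threshold. CLDN15, another channel-forming claudin, was at 1.81, 1.98, 7.42 and 4.47 FPKM and rose 3.75-fold at the second step (2.72 to 5.28). The level of CLDN7 in CD31+CD34+ was thus close to that in BC1, whereas EPCAM, its binding partner, was at 81.8 FPKM in BC1 and 2.01 FPKM in CD31+CD34+.

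Markers of other cell types that could carry claudins were examined beside these values. The summed level of 6 definitive endoderm genes was 197, 503, 169 and 91.6 FPKM in the 4 libraries, and APOA2 made up 193 FPKM of that in BC1. From APLNR+ to CD31+CD34+ APOA2 went from 470.0 to 65.3 FPKM, SOX17 from 16.6 to 11.8, TTR from 8.46 to 1.97 and FOXA2 from 0.588 to 0.198. HHEX, which endothelium also expresses, went from 7.13 to 87.9 and FOXA1 from 0.151 to 1.56 FPKM. The summed level of 6 genes of surface epithelium and trophectoderm was 8.49, 32.1, 43.6 and 3.41 FPKM in the 4 libraries, of which GATA3 alone made up 30.01 in APLNR+ and 40.1 in CD31+CD34+. TFAP2A was at 0.0311, 1.85, 3.40 and 0.562 FPKM, and so, like GATA3, was highest in CD31+CD34+. KRT7 was at 8.03 FPKM in BC1, 0.0842 in APLNR+ and listed at 0 in the later libraries. KRT14 was listed at 0 in all 4 libraries, KRT5 reached at most 0.186 FPKM and TP63 at most 0.0528 FPKM. Of 4 neural genes, OTX2 was at 20.5, 82.8 and 1.004 FPKM in the first 3 libraries and listed at 0 in CD43+. PAX6, SOX1 and NEUROG2 reached at most 0.302, 0.0787 and 0.0690 FPKM. The part of such cells in the claudin values was not tested.

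CLDN11, a claudin known from myelin and Sertoli cells, had its peak in APLNR+, at 4.27, 34.9, 2.04 and 0.193 FPKM, with a rise of 8.17-fold (6.92 to 9.65) and a fall of 17.1-fold (13.8 to 21.4). CLDN12 was at 16.9, 12.5, 12.1 and 11.9 FPKM, and its changes at the last 2 steps were within counting error. CLDN1, a barrier-forming claudin, was at 1.23, 1.43, 0.212 and 0.0724 FPKM, and CLDN23 at 2.55, 4.98, 1.93 and 0.516 FPKM. In shares of the summed claudin FPKM, CLDN6 held 76.0% in BC1 and 49.4% in APLNR+, where CLDN11 followed with 25.3%. In CD31+CD34+ CLDN7 led with 38.4%, ahead of CLDN10 with 24.8%. In CD43+ CLDN10, CLDN12 and CLDN7 held 28.1%, 25.4% and 24.9%. Unlike the cadherin sum, the claudin sum fell throughout, from 538 FPKM to 138, 109 and 47.0 FPKM.

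Of the other 3 membrane proteins of tight junctions, OCLN and MARVELD3 fell at the first step and MARVELD2 at the second. OCLN, which encodes occludin, was at 7.83, 0.598, 1.37 and 1.25 FPKM, 13.1-fold lower at the first step (10.1 to 17.0) and 2.30-fold higher at the second (1.71 to 3.10). MARVELD2, which encodes tricellulin, the protein of corners where several cells meet, lies 48.0 kb from OCLN on chromosome 5 but fell a step later, at 1.77, 1.91, 0.0467 and 0.0724 FPKM. MARVELD3, the third member of the occludin family, was at 24.0 and 1.02 FPKM in the first 2 libraries, 23.6-fold lower in APLNR+ (15.5 to 36.8), and at 0.0219 and 0.0176 FPKM, each worth less than 1 fragment, in the last 2.

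Among the scaffolds, TJP1 and PARD3 changed less than TJP3, CGN and CRB3. TJP1, which encodes ZO-1, was at 17.7, 10.1, 16.0 and 7.15 FPKM, and its fall of 2.24-fold at the last step (2.06 to 2.42) missed the threshold once the libraries were rescaled by size factors. PARD3, a polarity scaffold, was at 14.2, 18.2, 9.15 and 7.58 FPKM with no call at any step. TJP3, which encodes ZO-3, was at 6.53, 0.329, 0.423 and 0.744 FPKM and fell 19.8-fold at the first step (12.5 to 33.3). CGN, which encodes cingulin, a link between tight junctions and actomyosin, was at 22.6, 3.82, 6.22 and 1.80 FPKM, with falls of 5.93-fold at the first step (3.89 to 9.24) and 3.45-fold at the last (1.78 to 7.11). CRB3, the epithelial Crumbs protein that marks the apical membrane, was at 12.7, 0.622, 0.0932 and 0.117 FPKM and fell 20.5-fold at the first step (10.02 to 43.4). PARD6B, a partner of PARD3, stayed at or below 1.32 FPKM.

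The promoters of these genes were searched for the letters CAGGTG or CACCTG, the same E-box read on the 2 strands, which proteins of the SNAI and ZEB families are known to bind. The RefSeq table of promoter windows (GRCh38.p14, 250 bases before to 50 bases after each start) held 30 of the 49 genes in 53 windows. The genes without a window, which the counts do not cover, included CDH1, CDH3, MARVELD3, PKP2, PKP3, PPL, EPCAM, ESRP1, ESRP2 and GRHL2. The letters were present in 16 of these windows, 30.2%, from 14 genes, compared with 20.6% of all 35116 windows. At least 5 copies stood in 33 of all windows (0.0940%), among them the windows of CRB3 and CLDN7. The 250 bases before the start are shown for these 2 genes, because they held the most copies and their levels went different ways after APLNR+, and for DSC2, whose level was nearly flat, from its window with 1 copy. A second window of CLDN7 and of DSC2, at another start, held none. All starts here are those of the RefSeq table. By the GENCODE gene positions, the stretches shown for CRB3 and CLDN7 lie wholly inside the gene, and that for DSC2 lies partly inside it. Sequence after the start was found in a GENCODE transcript for CLDN7 but not for CRB3 or DSC2. The stretches are read 5′ to 3′ on the gene's strand, and the capitals mark the E-box letters. They lie at chr19:6464021-6464270 (plus strand), chr17:7262479-7262728 (minus strand) and chr18:31102422-31102671 (minus strand).
CRB3: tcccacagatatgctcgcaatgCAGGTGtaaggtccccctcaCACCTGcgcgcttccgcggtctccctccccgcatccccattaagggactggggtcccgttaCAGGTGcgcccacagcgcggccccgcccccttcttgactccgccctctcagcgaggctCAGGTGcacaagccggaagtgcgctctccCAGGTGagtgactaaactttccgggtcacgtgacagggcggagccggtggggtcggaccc
CLDN7: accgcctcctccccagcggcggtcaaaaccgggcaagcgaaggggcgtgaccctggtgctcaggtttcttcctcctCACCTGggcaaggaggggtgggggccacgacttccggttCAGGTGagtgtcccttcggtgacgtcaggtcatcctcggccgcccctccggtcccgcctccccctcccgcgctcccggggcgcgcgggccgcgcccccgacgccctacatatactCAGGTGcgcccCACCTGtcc
DSC2: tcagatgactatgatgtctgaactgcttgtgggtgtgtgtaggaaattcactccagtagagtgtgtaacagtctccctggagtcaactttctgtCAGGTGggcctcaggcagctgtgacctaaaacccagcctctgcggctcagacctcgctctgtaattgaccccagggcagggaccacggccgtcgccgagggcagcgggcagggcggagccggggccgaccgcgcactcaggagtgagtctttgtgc
In CRB3 the 5 copies began at positions -228, -208, -147, -89 and -60 relative to the start. In CLDN7, 4 of the 5 copies began before the start, at -174, -135, -20 and -9, and the other lay after it. CRB3 and CLDN7 both fell at the first step, but CLDN7 was 7.31-fold higher again in CD31+CD34+ while CRB3 had about 1.38 fragments there. A match of letters is a description of the sequence and shows no binding.

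Of the 8 desmosome genes that passed, 2 fell at the first step, 3 first fell at the second and 3 made no call at any step, although 7 of the 8 fell over the whole route. DSG2, which encodes desmoglein 2, was at 39.1, 27.5, 11.4 and 2.95 FPKM, 1.42-fold (1.34 to 1.51), 2.40-fold (2.22 to 2.61) and 3.87-fold lower (3.32 to 4.54) at the 3 steps. DSC2, which encodes its partner desmocollin 2, was at 6.37, 5.74, 5.50 and 6.13 FPKM, and the ratio between BC1 and CD43+ was 1.04 (0.923 to 1.17). The ratio between its highest and lowest library, 1.16, was the smallest of the 44 genes. DSC2 and DSG2 thus parted: of the summed FPKM of the desmosomal cadherins, DSG2 held 82.7%, 81.3%, 66.2% and 32.5%, and DSC2 13.5%, 17.0%, 31.8% and 67.4%. DSC3, whose gene lies 16.0 kb from DSC2 on chromosome 18, was at 1.83, 0.592, 0.339 and 0.00696 FPKM, the last worth about 1 fragment.

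In the desmosomal plaque, DSP, which encodes desmoplakin, the link to keratin filaments, was at 13.5, 18.4, 8.37 and 1.04 FPKM. It was 1.36-fold higher at the first step (1.29 to 1.43) and then fell 2.20-fold (2.07 to 2.33) and 8.08-fold (6.96 to 9.45). PKP3, a plakophilin of epithelia, was at 10.8, 9.80, 0.587 and 0.0557 FPKM, with a fall of 16.7-fold between APLNR+ and CD31+CD34+ (8.05 to 38.7) and less than 1 fragment behind its value in CD43+. PKP2, a plakophilin of simple epithelia and heart muscle, was at 10.7, 1.20, 1.53 and 3.72 FPKM, with a fall of 8.88-fold at the first step (7.20 to 10.97) and a level 2.43-fold higher at the last (1.99 to 2.98), a change of 0.90 on the log2(FPKM + 1) scale. PKP2 and PKP3 therefore fell at different steps from nearly the same level in BC1. PKP4, a relative of p120-catenin found in both kinds of junction, was at 26.9, 20.3, 23.1 and 12.5 FPKM and held 55.4%, 64.5%, 91.6% and 76.9% of the plakophilin sum. PPL, which encodes periplakin, was at 10.3, 1.01, 0.584 and 0.111 FPKM.

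The surface gene and the 3 regulators all fell at the first step, and over the whole route they had the lowest median of the classes (-4.33, compared with -0.94 for adherens, -1.90 for tight junction and -2.16 for desmosome genes). EPCAM, an adhesion protein of epithelial and pluripotent cells (chr2:47345158-47387601, GRCh38, plus strand), was at 81.8, 3.51, 2.01 and 1.44 FPKM. Its fall of 23.3-fold at the first step (19.1 to 29.1) was followed by 1.74-fold (1.25 to 2.46), and the interval of the last step included 1. ESRP1 and ESRP2 encode splicing factors that set the epithelial isoforms of many transcripts. ESRP1 was at 37.7, 6.66, 0.466 and 0.0964 FPKM, and ESRP2 at 24.6, 8.64, 0.503 and 1.15 FPKM. Both fell at the first 2 steps, by 14.3-fold (10.1 to 20.3) and 17.2-fold (11.1 to 28.9) at the second, and ESRP2 was 2.29-fold higher in CD43+ than in CD31+CD34+ (1.32 to 4.14), without a call. GRHL2, a transcription factor that maintains epithelial junction genes, was at 5.27, 0.324 and 0.366 FPKM and listed at 0 in CD43+.

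The level left of each gene was followed for the 32 genes with at least 5 FPKM in BC1. Relative to BC1, their median was 21.6%, 22.5% and 7.80% over the 3 later libraries, compared with 97.5%, 93.3% and 85.2% for the 9533 genes of the whole table that met the same limit. Under 10% of the BC1 level were 10, 14 and 17 of the 32 genes, and 2.15%, 4.45% and 7.84% of the 9533. The 8 adherens genes kept a median of 99.4%, 108% and 44.8%, the 7 desmosome genes 75.4%, 29.2% and 7.66%, the 13 tight junction genes 12.4%, 17.5% and 11.4%, and the 4 surface genes and regulators 11.9%, 2.25% and 1.01%. Genes for transmembrane proteins, 16 of the 32, were at 14.5%, 10.6% and 3.54%, and those for cytoplasmic or nuclear proteins, the other 16, at 63.9%, 44.7% and 23.1%. Genes chosen by a minimum in BC1 can lie below that level elsewhere more readily than above it, in these lists as in the whole table.

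**Figure D4:**
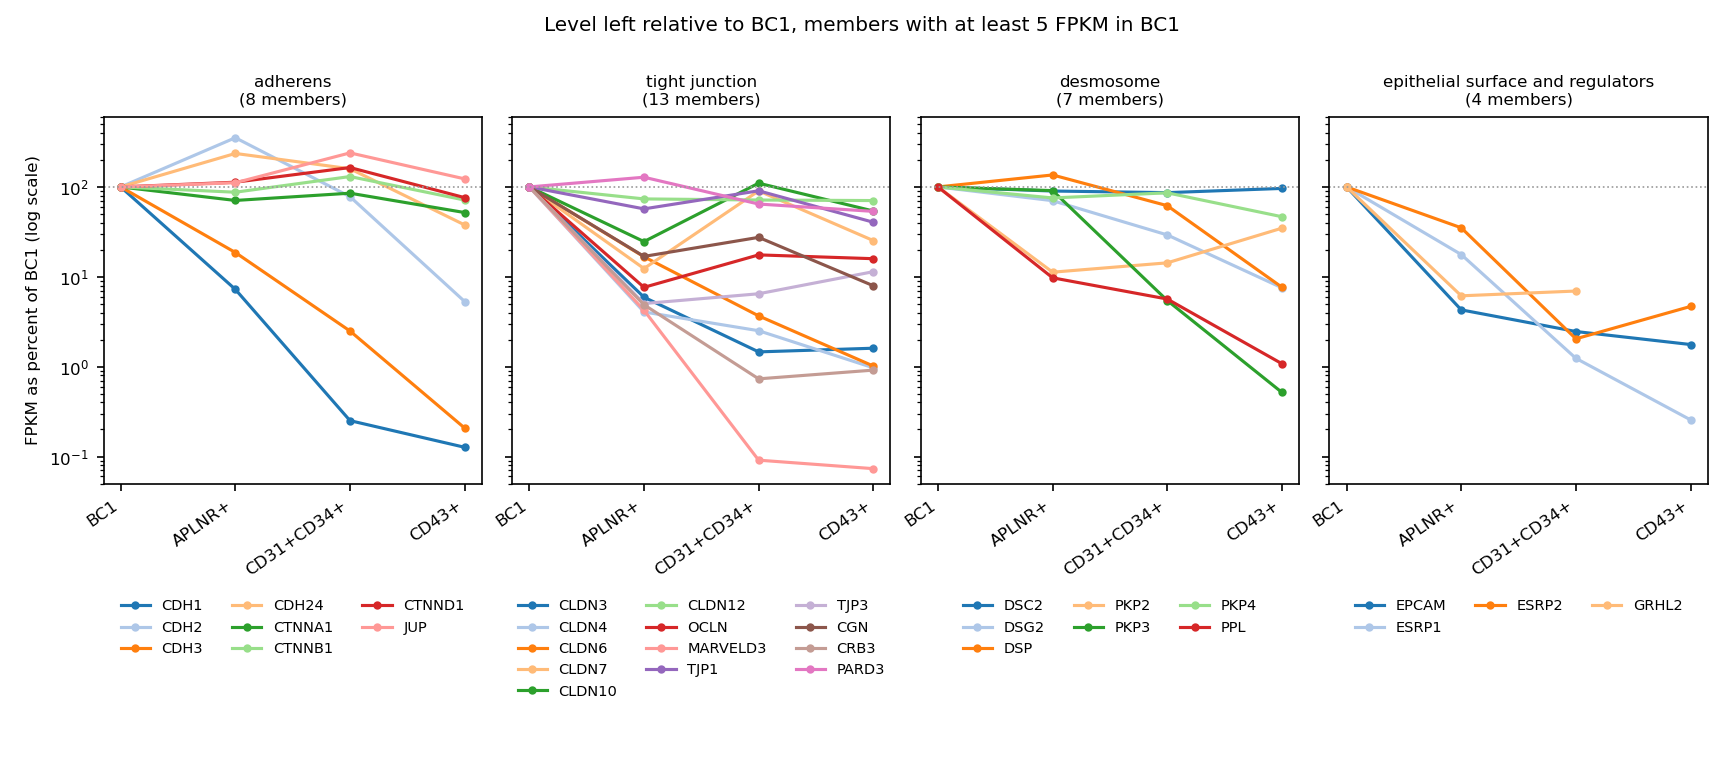
FPKM in each library as a percent of the BC1 level, on a log axis, for the 32 genes with at least 5 FPKM in BC1, with 1 panel per class and 1 line per gene. The 4 catenins drawn lie above 50% in every library, EPCAM lies at or below 4.29% from APLNR+ on, and CLDN7, CLDN10 and TJP1 dip in APLNR+ and return. GRHL2 is listed at 0 in CD43+ and has no point there.

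Over the whole route the largest falls among genes with a bounded interval were those of CDH1, 789-fold (354 to 2100), and CDH3, 482-fold (246 to 1125). CDH11 and CDH6 were the 2 that rose. The interval of DSC2 included 1. Of the 44 genes, 13 were lower at every step than at the one before, compared with 1561 of all 17137 genes that passed. Only 4 stayed within a 2-fold range over the 4 libraries (CTNNA1, CTNNB1, CLDN12 and DSC2). Among all genes with no library at 0, 5502 of 15648 did so.

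**Figure D5:**
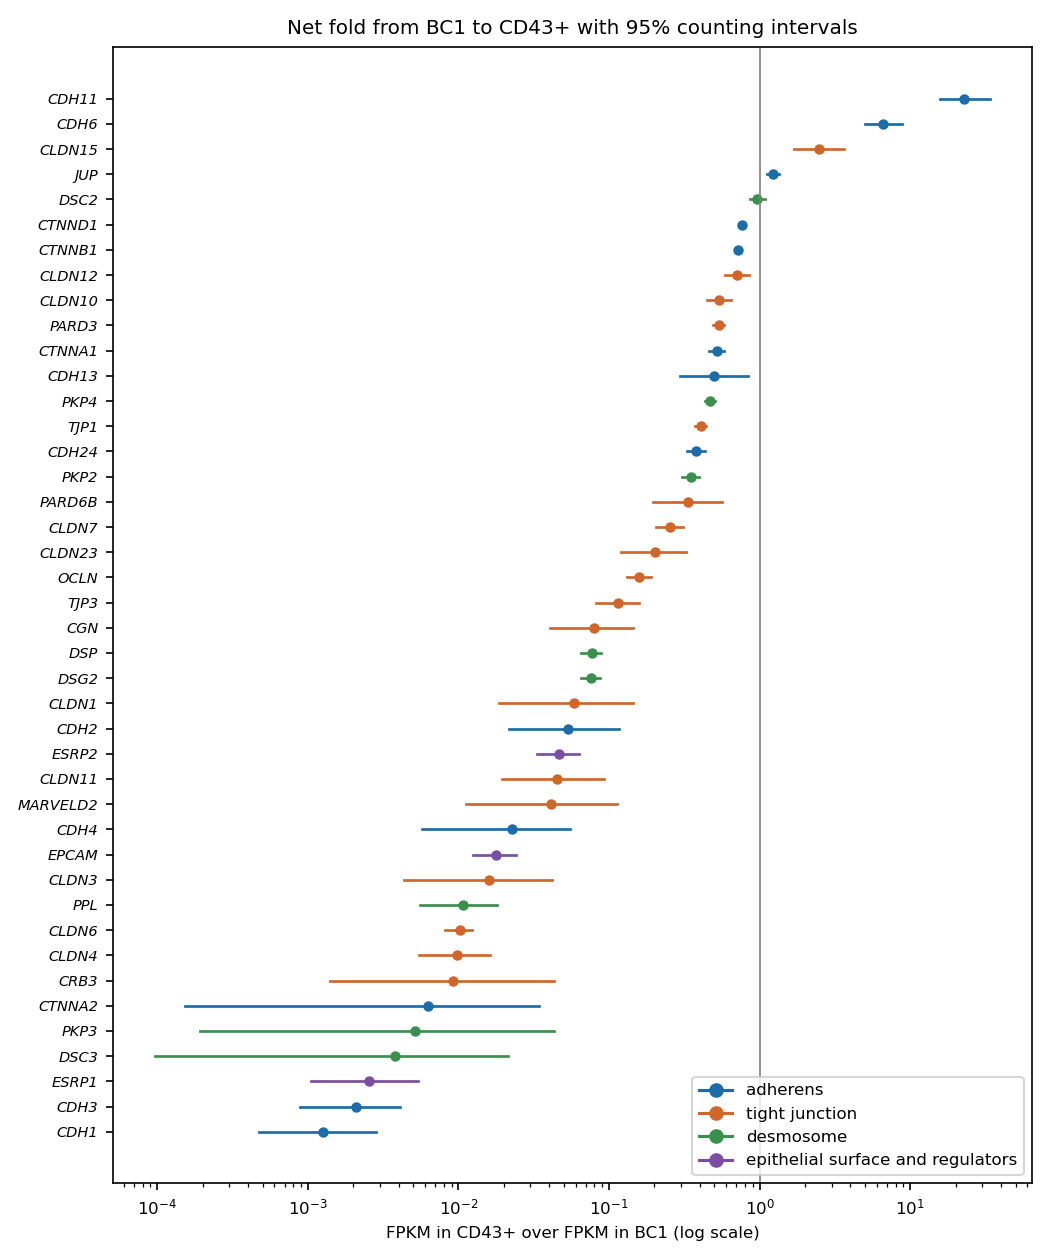
Ratio of FPKM in CD43+ to FPKM in BC1 on a log axis for 42 genes, sorted, with exact 95% counting intervals as bars. CDH11 and CDH6 lie above 1 beyond the threshold, DSC2 lies at 1, and CDH1 and CDH3 lie furthest below it. GRHL2, listed at 0 in CD43+, and MARVELD3, whose interval has no lower bound, are not drawn.

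Genes that lie near each other on a chromosome did not always change together. CDH1 and CDH3, CLDN3 and CLDN4 fell at the same first step, whereas MARVELD2 and OCLN fell at different steps, and DSC3, DSC2 and DSG2, which lie in that order on chromosome 18, ended at 0.00696, 6.13 and 2.95 FPKM in CD43+. ESRP2 lies 398 kb from CDH3 on chromosome 16, the chromosome that holds 9 of the 49 genes.

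Further genes of the same junctions were counted with the same threshold, against shares of all genes that fell of 9.32%, 11.4% and 13.5% and that rose of 9.15%, 13.0% and 7.63% at the 3 steps. Of 13 further cadherin, catenin and nectin genes that passed the filter, 3 fell and 2 rose at the first step, 3 and 1 at the second and 6 and 1 at the last. CDH5, which encodes VE-cadherin of endothelial adherens junctions, was at 0.523, 0.663, 224 and 9.38 FPKM, so that in CD31+CD34+ it stood above CDH11, the highest of the members there. NECTIN1, a cell adhesion molecule of adherens junctions, was at 38.6, 7.04, 9.69 and 2.90 FPKM, and CDH22 was at 0.244, 12.15, 1.53 and 0.0478 FPKM. Of 22 further tight junction and polarity genes, 5 fell and none rose at the first step, 3 fell and 4 rose at the second, and 4 fell and 1 rose at the last, where 18.2% that fell lay near the share of all genes. CGNL1, which encodes paracingulin, was at 15.2, 29.7, 35.9 and 2.08 FPKM, unlike its relative CGN, and LSR, a protein of tricellular junctions, was at 114, 53.65, 4.08 and 6.28 FPKM. PARD6A, a partner of PARD3, was at 10.7, 0.142, 1.69 and 2.37 FPKM. Both further desmosome genes that passed fell at the first step, PERP (9.00, 3.27, 6.12 and 0.786 FPKM) and DST (35.05, 16.2, 13.4 and 16.1 FPKM).

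Of 9 further epithelial genes, 4 fell and none rose at the first step, 4 fell and none rose at the second, and 1 fell and 1 rose at the last, 11.1% in each direction and near the shares of all genes. The surface protease genes ST14 and PRSS8, which encode matriptase and prostasin, fell at different steps: ST14 was at 12.6, 0.640, 0.159 and 0.142 FPKM and PRSS8 at 80.9, 61.0, 0.824 and 0.292 FPKM. RBM47, an RNA-binding protein gene, was at 36.6, 5.70, 0.773 and 0.0650 FPKM. Of the 6 transcription factors best known to repress epithelial genes, 5 rose and none fell at the first step, 2 rose and 3 fell at the second, and none rose and 4 fell at the last. TWIST1 was at 0.772, 15.0, 19.6 and 3.68 FPKM, and TWIST2 was at 2.00, 4.27 and 0.188 FPKM and listed at 0 in CD43+. SNAI1 and SNAI2 were highest in APLNR+ (45.9 and 32.8 FPKM), ZEB1 in CD31+CD34+ (16.5 FPKM) and ZEB2 in CD43+ (86.1 FPKM). In BC1 SNAI1, SNAI2, ZEB1 and ZEB2 were at 2.95, 1.08, 0.0798 and 0.0135 FPKM, and in CD43+ at 2.64, 2.04, 2.71 and 86.1 FPKM. CDH1, EPCAM and CRB3 were at 0.0899, 1.44 and 0.117 FPKM in CD43+. Whether these factors acted on the junction genes was not tested.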

How the data were processed

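Per the labels, libraries were made with an Illumina TruSeq RNA kit, and the authors deposited 1 table of FPKM for 4 libraries. The unit was taken from the values and the scale of the study's plots. The submitters' processing notes name BWA, Bowtie, RSEM and hg19, without roles or versions. The role of each, and whether counting used strand, is not given in the sources used here. The gene identifiers and positions were those of GENCODE 29 on GRCh38 (99.5% of identifiers found), and positions here refer to GRCh38 with the first base as 1.

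Rows of 1 gene identifier were summed (CDH3). Genes with at least 1 FPKM in a library were kept, and changes were taken on log2(FPKM + 1), which understates the change of low genes. With 1 library per population no test was possible. Approximate fragments were recovered from the steps of low FPKM values (84.0% to 85.8% of those used lay within 0.1 of a whole number, transcripts of at least 1000 bases), and exact Clopper-Pearson intervals of ratios were computed from them. They rest on the median transcript length of a gene. At 1 FPKM, a 2 kb transcript had 34.2 to 40.6 fragments. The fit and the intervals were tested on simulated data. Values were given for every gene that reached 10 FPKM or changed by at least 1 between consecutive populations, and other genes by their highest value. From each related list the 3 genes with the largest change were given. The 49 genes, the related lists and the markers were chosen with earlier results of these data known. Alternatives covered the pseudocount, the filter, the threshold, the scaling and the summing of rows. Python 3.11.15, numpy 2.4.6, scipy 1.17.1, pandas 2.3.3 and matplotlib 3.10.9 were used.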

Additional observations from a re-analysis of the deposited data

How the results depend on the processing

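No paired analysis was possible because each population had 1 library, and no replicate could be left out for the same reason. Of the main counts, medians and shares recomputed under the alternatives, 119 values stayed within 1.5 times (counts) or within the counting error of their genes (medians and shares), 37 moved further, and no median past the threshold changed sign. With a pseudocount of 0.1 FPKM, the last step had 3 genes that rose and 23 that fell, the medians of the adherens genes were -0.56 and -1.39 at the last 2 steps and those of the desmosome genes -0.67 and -1.81, and the medians of the surface genes and regulators were -3.07, -2.17 and -0.99 at the 3 steps. The tight junction medians at the last 2 steps became -0.59 and -0.72, from -0.26 and -0.24. With a threshold of 2 on the log2 scale, 2 genes rose at the first step, 2 rose at the second, 3 fell at the last, and 1 rose and 19 fell from BC1 to CD43+. With a filter of 5 FPKM, 0 rose at the last step and 1 from BC1 to CD43+, and with size factors 2 rose at the last step (CDH6 and PKP2). With no filter the tight junction median at the first step was -0.75. Means in place of medians gave -1.31 for the tight junction genes and -0.81 and -2.55 for the desmosome genes and the surface genes and regulators at the first step, and -0.45 and -0.66 for the adherens and desmosome genes at the second. Shares of FPKM times transcript length, a measure of fragments rather than transcripts, were 40.0% for CDH3 in BC1, 18.0%, 59.2% and 48.8% for CDH11 in APLNR+, CD31+CD34+ and CD43+, 74.1% and 41.5% for CLDN6 in BC1 and APLNR+, 23.1% for CLDN7 in CD31+CD34+, 23.8% for CLDN10 in CD43+, 75.2%, 74.5% and 57.1% for DSG2 in BC1, APLNR+ and CD31+CD34+, 74.7% for DSC2 in CD43+, and 67.65%, 87.5% and 93.3% for PKP4 in BC1, APLNR+ and CD31+CD34+. On that scale CDH1, with 47.4%, stood above CDH3 in BC1, CDH24, with 40.8%, above CDH11 in APLNR+, and CLDN12, with 27.4%, above CLDN10 in CD43+. Rescaling to TPM moved the median of all genes at the last step from -0.08 to -0.19, and JUP, CLDN10 and CLDN23 then passed the threshold there. Depth limits the lowest values: 29 of the 49 genes had at least 10 fragments in CD43+, compared with 47 in BC1, and 6 had 1 to 3.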
